A study of Mus musculus with 912 samples.

Results

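The data described here are 53 single-nucleus transcriptomes of dentate granule (DG) neurons, 26 from FOS+ and 27 from FOS− nuclei, collected from 1 mouse 1 h after a visit to an unfamiliar environment (NE), out of 912 nuclei in the whole series. The nuclei were chosen by their labels: NE exposure with collection at 1 h, a predicted DG cell type, and a sort for PROX1 and CTIP2 protein, which together mark DG neurons. A nucleus was also required to have at least 100000 aligned reads and at least 4000 genes with log2(TPM+1) above 1. These limits kept 53 of the 56 labelled nuclei and left out 1 FOS+ nucleus with 2527 genes and 2 FOS− nuclei with 1847 and 2070 genes. The nuclei kept nearest to the limit of 4000 genes had 4491 genes in FOS+ and 4708 in FOS−. The study examined how activity changes transcription in neurons of the mouse hippocampus. Nuclei were isolated, stained for NEUN, PROX1, CTIP2 and FOS, sorted into wells and sequenced by the SmartSeq2 method, which reads full-length transcripts without molecular identifiers.

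The mouse was a wild-type C57BL6 female of 8.7 weeks that explored the NE for 15 min and then stayed in its home cage until it was killed 1 h later. No transgene, drug or deletion was used in any group described here. FOS+ and FOS− nuclei came from the same animal and the same batch by date. In the plate, FOS+ nuclei lay in well columns 9 to 12 and FOS− nuclei in columns 1 to 4, so an effect of plate position and the FOS gate cannot be told apart. The background was given by 24 FOS− DG nuclei of the same sort from wild-type C57BL6 females that were never placed in a NE (home cage, HC), 19 from mouse 6 at 7.75 weeks and 5 from mouse 7 at 8.57 weeks. The HC nuclei belong to a batch of another date, so batch and exposure cannot be told apart between them and the nuclei of the exposed mouse. Mouse numbers recur in the labels, since the number 3 is also carried by 29 HC nuclei of another batch, and a mouse is taken here as its number within an exposure and batch. With 1 mouse per group no test was made. Values are given over nuclei, summed counts carry exact 95% Poisson intervals and shares of nuclei exact 95% binomial intervals, and both cover counting error only, not the difference between animals.

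DG neurons are the principal cells of the dentate gyrus, the entry point of cortical input to the hippocampus, and most of them stay silent while an animal explores. Firing lets calcium into the cell and activates kinases that phosphorylate CREB and other factors already bound to DNA. These factors switch on immediate early genes (IEGs), some of which encode transcription factors such as FOS and some of which encode proteins that act at the synapse. The stain for FOS protein therefore selects nuclei by a product of this programme, while the libraries measure nuclear RNA at the time of collection.

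Total counts per nucleus ran from 506492 to 1970200 in FOS+ nuclei, with a median of 1462217, and from 679114 to 2594899 in FOS− nuclei, with a median of 1378220. No pair of nuclei held identical counts. At this similar depth FOS+ nuclei had fewer detected genes, with 4491, 5195 and 6863 as the lowest, median and highest number above a log2(TPM+1) of 1, against 4708, 6209 and 7662 in FOS− nuclei. The gap remained when every nucleus was thinned to 500000 counts, with a median of 5742.5 genes counted in FOS+ and 6581 in FOS− nuclei. It went along with a greater concentration of the counts. The 10 most abundant genes of a nucleus took a median of 12.1% of its counts in FOS+ and 7.77% in FOS−, and a median of 267 genes held 50% of the counts in FOS+ against 452 in FOS−. The share of RNA in each gene is therefore relative to a total that is made up differently in the 2 groups, and this bears on every ratio given here.

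The sorted nuclei carried the RNA of DG neurons in both groups. The summed level of 12 DG markers fixed for this comparison was 2079, 5450 and 12135 CPM (CPM, counts scaled to a nucleus total of 1000000; lowest, median and highest) in FOS+ and 1521, 5890 and 11258 CPM in FOS−, and all 12 markers were counted in both. Markers of CA1 and CA3 pyramidal cells, astrocytes, microglia and vessels had medians between 0 and 8.27 CPM in either group, and oligodendrocyte lineage markers medians of 35.5 CPM in FOS+ and 11.6 CPM in FOS−. Single nuclei reached more. The highest FOS+ and FOS− nuclei had 1372 and 1575 CPM of CA1 markers and 255 and 315 CPM of CA3 markers. They had 1012 and 854 CPM of astrocyte, 587 and 437 CPM of microglia and 2283 and 1959 CPM of oligodendrocyte lineage markers. Interneuron markers had a median of 1471 CPM in FOS+ and 841 CPM in FOS−, with Slc32a1, which encodes the vesicular GABA transporter, and the interneuron genes Vip and Pvalb at 0 counts in both groups. Of 12 interneuron markers 8 had enough counts for a log2 ratio of summed CPM, FOS+ over FOS−. It was above 0 for 5, among them Npy (6.83), Lhx6 (1.84) and Gad1 (1.32). It was below 0 for Reln (−2.91), Gad2 (−0.74) and Adarb2 (−0.18). The part of markers of other cell types in the results was not tested.

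Fos, the gene whose protein was stained, was far higher in sum in FOS+ nuclei but was not counted in all of them. The lowest, median and highest Fos levels were 0, 1.51 and 3061 CPM in FOS+ nuclei and 0, 0 and 1.88 CPM in FOS− nuclei. The groups overlapped at the low end, and 11 FOS+ nuclei lay above the highest FOS− nucleus. Summed over nuclei, Fos had 16770 counts in FOS+ and 10 in FOS−, a log2 ratio of 10.86 (counting interval 9.98 to 11.92). Fos reached 10 CPM in 10 of 26 FOS+ nuclei (38.5%, interval 20.2% to 59.4%) and in 0 of 27 FOS− nuclei (interval 0% to 12.8%). The HC nuclei were at the level of the FOS− nuclei, with a highest value of 2.12 CPM in mouse 6 and no count in mouse 7.

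Promoter sequences are shown for 5 genes of the comparison, because CREB binds the palindrome TGACGTCA and its shorter core TGACG. Called genes differ in whether their promoter holds these letters, and the 5 genes are a selection from them. Each window runs from 250 bases before to 50 bases after a transcription start in RefSeq (GRCm38.p6) and is written 5′ to 3′ on the strand of the gene, with TGACG and its reverse complement CGTCA in capitals. The promoter of Fos holds 2 such cores, that of Plk2 holds 3, some of them within 1 full palindrome, that of Nr4a1 holds 4, and that of Inhba holds none, although all 4 genes were called higher in FOS+ nuclei. The most upstream of 3 promoters of Clasp2, a gene called lower, holds 3 cores and 1 full palindrome. Among the other genes described below for their share of pairs, Ankrd33b (higher), Akap11 and 9330159F19Rik (lower) have a promoter with the core. Baiap2, Dclk1, Tet3, Spry2, Pcdh8 and Lingo1 (higher) have none with it. Per3, Myef2, Snhg20, Rabgap1l, Zfp157 and Vps41 (lower) have none either.
Fos promoter, chr12:85473640-85473939, plus strand: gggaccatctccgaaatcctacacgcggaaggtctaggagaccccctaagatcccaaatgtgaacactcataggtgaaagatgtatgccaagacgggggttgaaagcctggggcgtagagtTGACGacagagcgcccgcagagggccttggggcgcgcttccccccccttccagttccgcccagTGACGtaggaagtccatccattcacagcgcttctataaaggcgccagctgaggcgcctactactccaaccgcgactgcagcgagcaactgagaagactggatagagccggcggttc
Plk2 promoter, chr13:110394794-110395093, plus strand: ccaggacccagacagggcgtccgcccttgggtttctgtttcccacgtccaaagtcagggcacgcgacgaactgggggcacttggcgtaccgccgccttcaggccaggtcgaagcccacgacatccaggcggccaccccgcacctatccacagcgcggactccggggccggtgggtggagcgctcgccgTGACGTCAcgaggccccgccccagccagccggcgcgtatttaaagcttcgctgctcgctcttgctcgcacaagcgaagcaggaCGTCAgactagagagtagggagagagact
Nr4a1 promoter, chr15:101266596-101266895, plus strand: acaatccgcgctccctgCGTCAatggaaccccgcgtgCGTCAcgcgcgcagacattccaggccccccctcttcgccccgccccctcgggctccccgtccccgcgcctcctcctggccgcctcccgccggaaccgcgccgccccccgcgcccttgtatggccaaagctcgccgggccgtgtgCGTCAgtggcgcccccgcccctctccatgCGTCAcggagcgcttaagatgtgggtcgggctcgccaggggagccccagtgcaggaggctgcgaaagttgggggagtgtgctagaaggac
Inhba promoter, chr13:16011601-16011900, plus strand: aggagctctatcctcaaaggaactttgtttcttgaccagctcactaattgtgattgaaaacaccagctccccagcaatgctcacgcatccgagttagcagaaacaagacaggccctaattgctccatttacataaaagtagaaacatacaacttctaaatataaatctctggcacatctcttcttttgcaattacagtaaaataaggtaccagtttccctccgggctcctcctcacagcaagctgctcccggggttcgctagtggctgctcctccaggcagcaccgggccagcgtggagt
Clasp2 promoter, chr9:113741223-113741522, plus strand: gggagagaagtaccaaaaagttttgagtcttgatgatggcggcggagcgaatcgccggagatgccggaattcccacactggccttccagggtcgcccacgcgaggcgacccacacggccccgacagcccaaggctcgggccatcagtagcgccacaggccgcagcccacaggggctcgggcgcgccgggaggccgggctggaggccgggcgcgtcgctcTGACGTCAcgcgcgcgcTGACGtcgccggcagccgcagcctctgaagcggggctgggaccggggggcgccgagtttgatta
Of all 32851 promoters in the table, 20.8% hold TGACG on either strand, those within the palindrome included, and 1.79% hold TGACGTCA, so the core alone is common. TGACG was held by 44.7% of promoters of genes called higher, 25.3% of those of genes called lower and 30.1% over all measured genes. TGACGTCA was held by 3.91%, 2.41% and 3.1% of them. The table holds a promoter for only 74.7% of the genes called higher, 77.8% of those called lower and 67.4% of all measured genes. These shares are therefore partial, and their difference was not tested. Arc, Vgf, Kdm6b and Sybu are among the genes with no promoter there.

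The comparison asked which genes differ between DG neurons that stained for FOS protein and FOS− DG neurons of the same animal. A gene was measured if it had a count in at least 20% of the 53 nuclei, which 11849 genes did. A gene was called higher or lower if its summed CPM differed at least 4-fold and if, over all pairs of 1 FOS+ and 1 FOS− nucleus, the nucleus of the higher group had the higher CPM in at least 75% of pairs. By this rule 170 genes were called higher in FOS+ nuclei, 1.43% of those measured, and 171 were called lower, 1.44% of those measured. The directions differed in how evenly the nuclei carried the calls. In 42 of the higher genes, but in 4 of the lower genes, at least 90% of pairs went in the called direction. Without the condition on pairs, 832 genes were at least 4-fold higher and 1923 at least 4-fold lower, so most genes past 4-fold did not reach 75% of pairs.

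**Figure D1:**
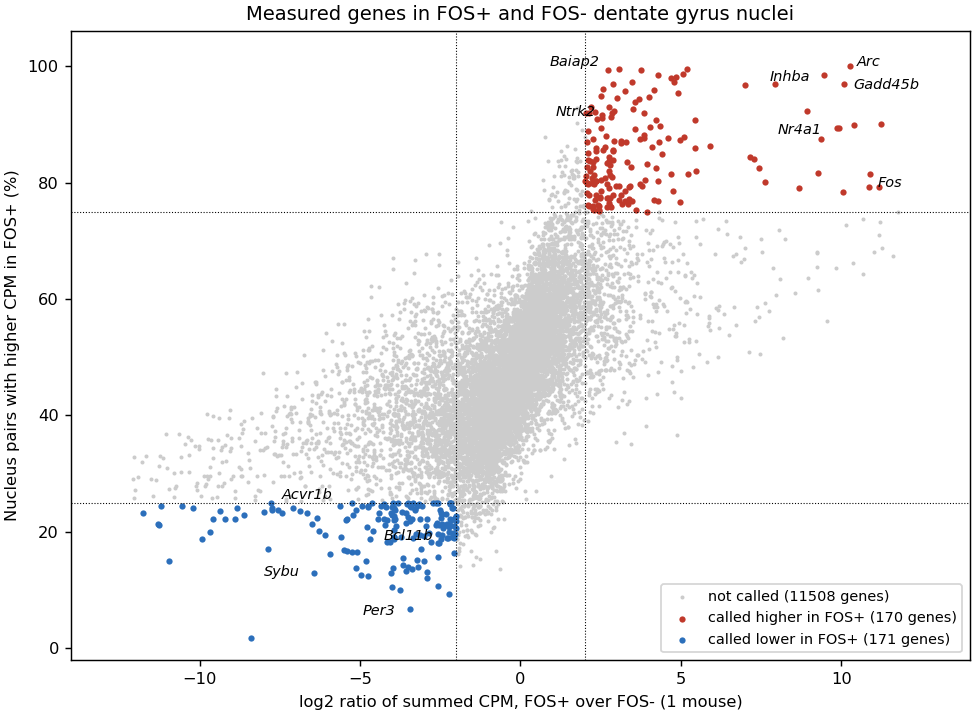
Each point is a measured gene, with the log2 ratio of summed CPM (FOS+ over FOS−, 1 mouse) on the horizontal axis and the percent of FOS+/FOS− nucleus pairs in which the FOS+ nucleus had the higher CPM on the vertical axis. Red points are the 170 genes called higher, blue points the 171 called lower and grey points the other measured genes, and dotted lines mark the 4-fold and 75% limits. Arc stands at 100% of pairs, and Per3, among the labelled genes called lower, at 6.70%.

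The balance of the calls depended on the scaling. With counts scaled by the total of each group, the median log2 ratio over all measured genes was −0.25, and 49.9% of the calls were higher. With TMM factors that median moved to 0.12 and the calls to 230 higher and 116 lower, 66.5% higher, and with DESeq2 size factors it moved to 0.06 and the calls to 216 higher and 121 lower, 64.1% higher. Ratios given here are on the scale of total counts. Each scaling moves all of them by the same amount, so they are read against −0.25. The genes called higher took 5.58%, 9.24% and 12.5% of the counts of a FOS+ nucleus (lowest, median and highest) and 0.779%, 1.13% and 1.56% of the counts of a FOS− nucleus. The genes called lower took 0.166%, 0.326% and 0.71% of the counts in FOS+ and 2.51%, 2.89% and 3.79% in FOS−. These shares describe genes chosen for the difference. In the HC nuclei, which the choice did not use, the higher genes took a median of 1.25% of the counts in mouse 6 and 1.15% in mouse 7, both within the range of the FOS− nuclei. The lower genes took a median of 2.13% and 2.01% there, both under the lowest FOS− nucleus and over the highest FOS+ nucleus.

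Arc was the only measured gene whose FOS+ and FOS− nuclei did not overlap, 0.00844% of those measured. Arc encodes a protein of the postsynapse that promotes removal of AMPA receptors and lies at chromosome 15, 74669083 to 74672570, minus strand (GRCm38). Its levels were 7.06, 1991 and 5831 CPM in FOS+ nuclei and 0.732, 1.63 and 6.53 CPM in FOS− nuclei, a log2 ratio of 10.27 (counting interval 9.95 to 10.61). The separation was narrow at its edge, since the lowest FOS+ nucleus had 13 Arc counts and the highest FOS− nucleus had 8. After thinning to 500000 counts no measured gene was free of overlap. In HC mouse 6 Arc was not counted in most nuclei but reached 213 CPM in 1 nucleus, the only HC nucleus at or above 10 CPM.

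Inhba, which encodes the activin A subunit inhibin beta A, showed the next largest ratio among the 12 genes called higher with the greatest share of pairs. Its levels were 2.63, 3434 and 7142 CPM in FOS+ nuclei and 0, 1.96 and 29.2 CPM in FOS− nuclei, a log2 ratio of 9.45 (counting interval 9.23 to 9.68). All but 2 of the 26 FOS+ nuclei lay above every FOS− nucleus. The promoter printed above is the single Inhba window in the table, and the gene spans chromosome 13, 16011851 to 16031621.

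Other members of the 12 had smaller ratios from a higher base. Baiap2, which encodes the actin regulator IRSp53, had 1284, 6180 and 16299 CPM in FOS+ nuclei and 1.46, 767 and 1929 CPM in FOS− nuclei, a log2 ratio of 3.06. Dclk1, which encodes a microtubule-associated kinase, had 1533, 4405 and 8937 CPM in FOS+ and 25.5, 684 and 2074 CPM in FOS−, a log2 ratio of 2.72. For these genes 25 and 24 of the 26 FOS+ nuclei exceeded every FOS− nucleus, although the gene was well counted in both groups. Plk2, a kinase that weakens synapses after activity, had 654, 2181 and 4327 CPM in FOS+ and 0, 24.5 and 1026 CPM in FOS−, a log2 ratio of 3.77. Ankrd33b, an ankyrin-repeat gene, had 251, 1298 and 2986 CPM in FOS+ and 0, 0.981 and 428 CPM in FOS−. Its log2 ratio was 5.20, and 6.27 without the highest nucleus of each group.

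The remaining members of the 12 were regulators of DNA methylation and histones, a kinase inhibitor and cell-surface or secreted proteins. Tet3, an enzyme that oxidises methylated cytosine, had 73.5, 1375 and 3281 CPM in FOS+ and 0, 2.07 and 440 CPM in FOS−, a log2 ratio of 5.08. Kdm6b, a demethylase of histone H3 lysine 27, had 57.9, 584 and 1020 CPM in FOS+ and 0, 10.4 and 549 CPM in FOS−, a log2 ratio of 3.48, or 4.13 without the highest nucleus of each group. Spry2, an inhibitor of receptor tyrosine kinase signalling, had 164, 589 and 1744 CPM in FOS+ and 0, 0.694 and 289 CPM in FOS−, a log2 ratio of 4.30. In these genes 23, 15 and 21 FOS+ nuclei lay above every FOS− nucleus. The protocadherin gene Pcdh8 (log2 ratio 4.85), the Nogo receptor partner gene Lingo1 (4.70) and the neuropeptide precursor gene Vgf (4.80) had FOS+ medians of 1539, 1044 and 163 CPM and FOS− medians of 2.76, 2.43 and 0 CPM. Vgf rested on few FOS− nuclei, and its log2 ratio was 6.95 without the highest nucleus of each group.

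**Figure D2:**
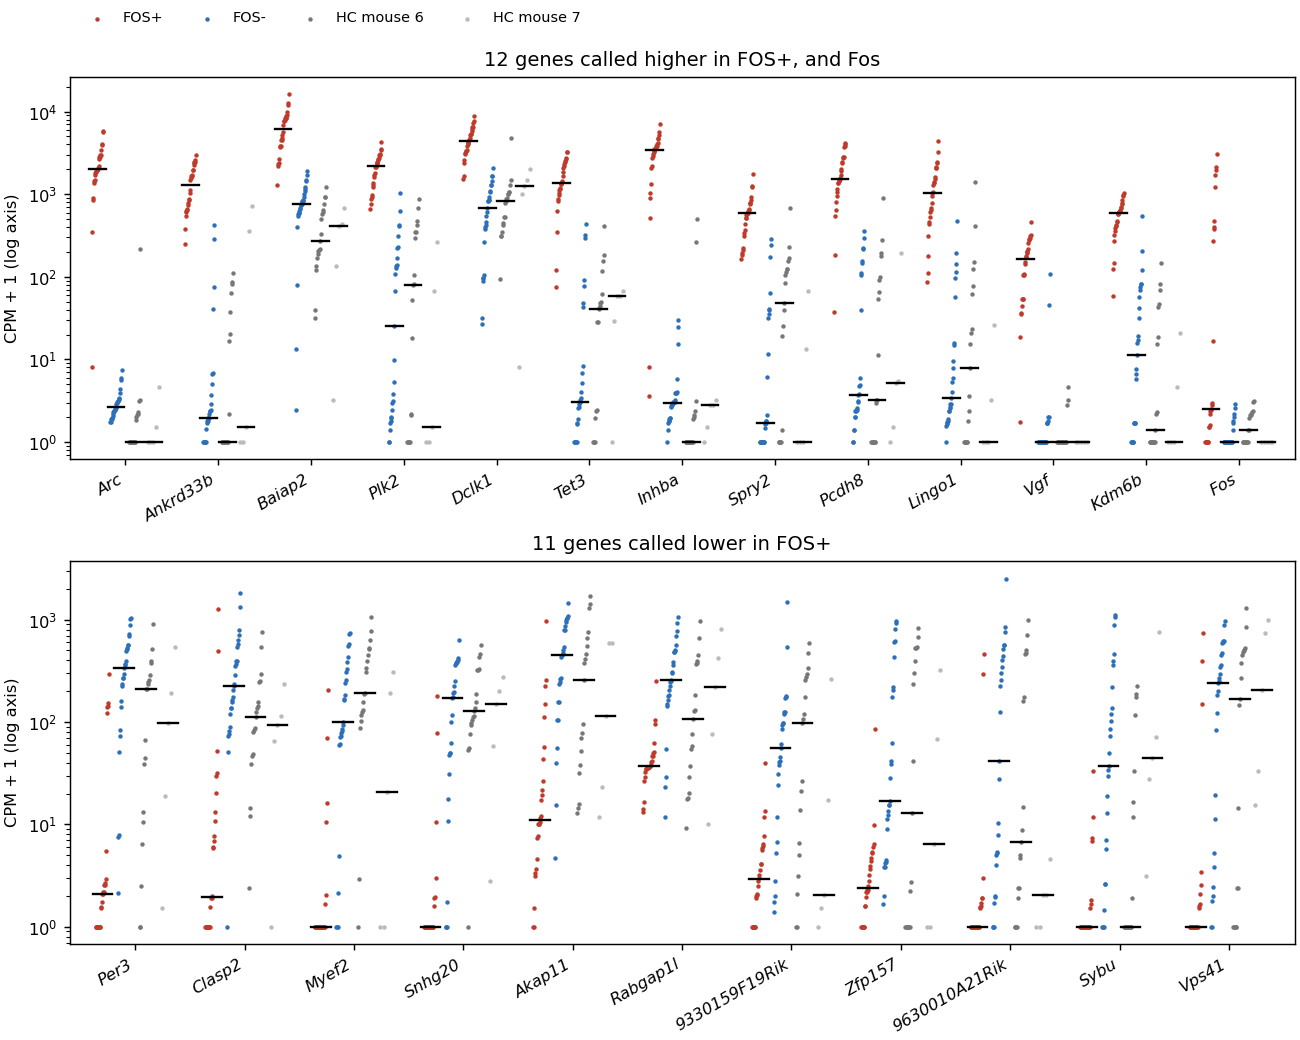
CPM + 1 (log axis) of each nucleus for the 12 genes called higher with the greatest share of nucleus pairs and for Fos (top), and for 11 genes called lower (bottom), in FOS+, FOS− and HC nuclei of mice 6 and 7. Points are nuclei, sorted by level within a group, and bars are medians. For each of the 12 genes most FOS+ points lie above all FOS− points, and for Fos 11 of 26 do. In the lower panel most FOS+ points crowd near 0, except for Akap11 and Rabgap1l, whose FOS+ points lie higher. Across that panel the FOS− points spread from near 0 to over 1000 CPM.

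The 12 genes were chosen by their share of pairs, so counts of nuclei beyond the other group follow in part from that choice. Across them a FOS+ nucleus lay above every FOS− nucleus in 6 genes at the lowest, 10 in median and 12 at the highest, and 23 of 26 FOS+ nuclei did so in at least 9 genes. The nucleus with the lowest Arc, 7.06 CPM, had 2738 CPM of Inhba, 2336 CPM of Baiap2 and 1058 CPM of Bdnf, and exceeded every FOS− nucleus in 11 of the 12 genes. The next lowest, with 346 CPM of Arc, did so in 11 genes as well, with 7142 CPM of Inhba, the highest of any nucleus.

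The share of nuclei with any count separated the groups less than the level did. Over the 170 genes called higher, the median share of nuclei with a count was 92.3% in FOS+ and 63.0% in FOS−, beside 50.0% and 59.3% over all measured genes. After thinning to 500000 counts these shares were 86.5% and 46.3%, beside 38.5% and 44.4%. Arc had 1 to 8 counts in each of the 27 FOS− nuclei (100%, interval 87.2% to 100%) and, after thinning, a count in 20 of 27 (74.1%, interval 53.7% to 88.9%), beside 2 of 17 nuclei of HC mouse 6 (11.8%, interval 1.46% to 36.4%) and 2 of 4 of HC mouse 7 (50.0%, interval 6.76% to 93.2%). Inhba was counted after thinning in 19 of 27 FOS− nuclei, in 6 of 17 of HC mouse 6 and in 2 of 4 of HC mouse 7. The FOS− nuclei shared a plate with the FOS+ nuclei and the HC nuclei did not, and the source of these low counts was not tested. At a level of 10 CPM, chosen after the values were seen, the median share over the higher genes was 76.9% in FOS+, 18.5% in FOS− and 21.1% in HC mouse 6.

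For the 171 genes called lower, the median share of nuclei with a count was 34.6% in FOS+ and 77.8% in FOS−, and after thinning 23.1% and 70.4%. At 10 CPM the shares were 7.69% in FOS+, 51.9% in FOS− and 42.1% in HC mouse 6.

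A list of 53 early and activity-regulated genes, written with earlier results of these data known, was counted in each nucleus at log2(TPM+1) above 1. FOS+ nuclei held 23, 29 and 35 of these genes (lowest, median and highest), and FOS− nuclei held 9, 15 and 19, so at this level no FOS− nucleus reached the lowest FOS+ nucleus. FOS− nuclei were not at 0, and they overlapped the HC nuclei, which held 5, 14 and 22 in mouse 6 and 10, 13 and 16 in mouse 7. With any count the groups overlapped, at 26, 33 and 37 genes in FOS+ and 14, 23 and 29 in FOS−, with up to 26 in HC mouse 6. After thinning to 500000 counts the lowest FOS+ nucleus held 23 genes and the highest FOS− nucleus 22, while the highest nucleus of HC mouse 6 held 24. Above a log2(TPM+1) of 3 the lowest FOS+ nucleus held 19, the highest FOS− nucleus 14 and the highest HC nucleus 18. FOS+ nuclei with and without Fos RNA overlapped in this count. The 16 FOS+ nuclei with Fos above 1 held 23, 31 and 35 early genes, and the 10 without held 24, 28 and 30, with Arc medians of 2067 and 1865 CPM.

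**Figure D3:**
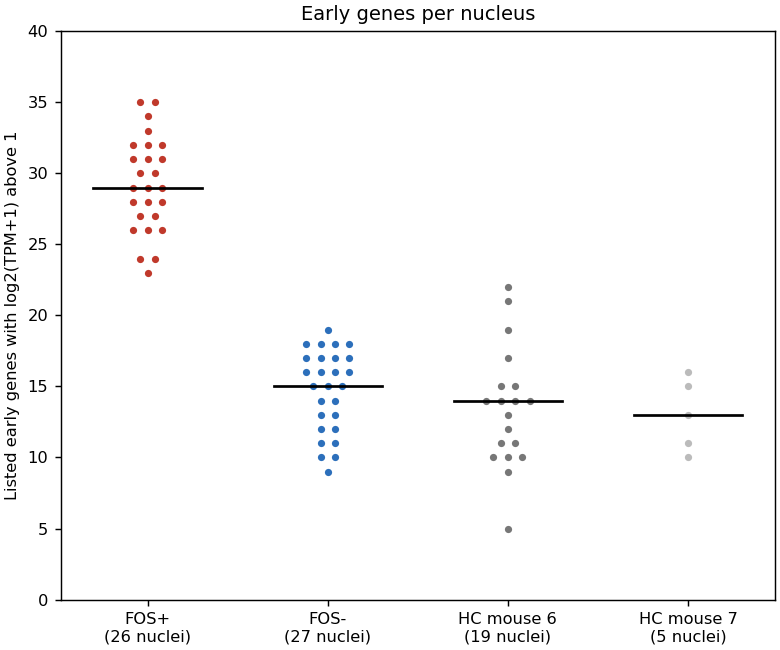
Number of the 53 listed early and activity-regulated genes with log2(TPM+1) above 1 in each nucleus, by group. Points are nuclei and bars are medians, and at this level every FOS+ nucleus, with 23 or more genes, lies above every FOS− nucleus and every HC nucleus, of which the highest holds 22. With any count the FOS+ and FOS− nuclei overlap, at 26 to 37 and 14 to 29 genes.

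Early transcription factor genes were called in the higher direction alone. Of 28 listed, 17 were measured, 9 were called higher and 0 lower, with a median log2 ratio of 4.50 beside −0.25 for all measured genes. Counts of called members in this and later lists are read beside all measured genes, of which 1.43% were called higher and 1.44% lower. The FOS family members Fos, Fosb and Fosl2 and the AP-1 partner gene Junb were called. Fosb had 0, 38.7 and 501 CPM in FOS+ and 0, 0 and 1.98 CPM in FOS−, with 3 counts in all FOS− nuclei together, a log2 ratio of 11.19 with a wide counting interval of 9.64 to 13.47, or 12.58 without the highest nucleus of each group. Junb had 0, 279 and 1023 CPM in FOS+ and 0, 0 and 288 CPM in FOS−, a log2 ratio of 4.04, or 4.68 without the highest nuclei. Fosl2 stood at 4.40, or 7.25 without them. The partners Jun (1.67) and Jund (1.84) were not called.

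The orphan nuclear receptor genes Nr4a1, Nr4a2 and Nr4a3 were called too. Nr4a1 had 0, 250 and 1829 CPM in FOS+ and 0, 0 and 3.24 CPM in FOS−, a log2 ratio of 9.88 (counting interval 9.20 to 10.66). Nr4a2 had 0.899, 525 and 5869 CPM in FOS+ and 0, 0.689 and 255 CPM in FOS−, a log2 ratio of 4.90, or 5.67 without the highest nuclei. Nr4a2 was above 1 in log2(TPM+1) in 25 of 26 FOS+ nuclei, Nr4a1 in 19, Fos in 16 and Fosb in 15, so the factor genes differed in how many FOS+ nuclei held their RNA. Egr1, a zinc-finger IEG named after its values were seen, had a log2 ratio of 4.50 but was higher in FOS+ in 66.3% of pairs and was not called. Its FOS+ nuclei had 0, 33.1 and 2740 CPM and its FOS− nuclei 0, 0.705 and 197 CPM. Npas4, also named after its values were seen, was counted in 7 of 26 FOS+ nuclei (26.9%) and reached 809 CPM in the highest, too few nuclei to count as measured.

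Activity-regulated effector genes had the largest share of called members among the lists. Of 25 listed, 21 were measured, 15 were called higher and 0 lower, with a median log2 ratio of 3.29. Homer1, a postsynaptic scaffold gene with a short activity-induced form that these gene-level counts do not separate, had 82.2, 657 and 3459 CPM in FOS+ and 0, 2.06 and 440 CPM in FOS−, a log2 ratio of 3.99. Gpr3, a receptor gene that raises cyclic AMP, had 0, 257 and 1653 CPM in FOS+ and 0, 0 and 41.5 CPM in FOS−, a log2 ratio of 6.99. That ratio was 10.57 without the highest nucleus of each group. The spine protein gene Synpo (3.01), the neuritin gene Nrn1 (2.75) and the GTPase gene Rheb (2.63) had FOS+ medians of 2299, 1985 and 340 CPM and FOS− medians of 166, 310 and 7.95 CPM. Nptx2, Ptgs2 and Mir22hg were called with log2 ratios of 3.29, 4.61 and 4.98, or 6.23, 6.12 and 6.28 without the highest nucleus of each group. Among the members that were not called, the secretogranin gene Scg2 stood at 1.31 and the enkephalin gene Penk at −2.71.

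Feedback inhibitors of kinase signalling were called in part. Of 26 listed, 16 were measured, 4 were called higher (Spry2, Sik1, Per1 and Errfi1) and 0 lower, with a median log2 ratio of 1.47. Per1 is counted with this list as written, although it is a period gene of the circadian clock. Sik1, a kinase that restrains CREB coactivators, had 0, 9.00 and 719 CPM in FOS+ and 0, 0 and 8.49 CPM in FOS−, a log2 ratio of 7.15. Errfi1, an inhibitor of the EGF receptor, had a log2 ratio of 4.99, or 7.28 without the highest nucleus of each group. The MAP kinase phosphatase genes Dusp4 (1.89) and Dusp6 (1.53) and the G-protein regulator gene Rgs2 (2.08) were not called, with the FOS+ nucleus higher in 72.4%, 66.2% and 74.9% of pairs.

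Genes of chromatin and DNA demethylation were also called in part. Of 23 listed, 17 were measured, 5 were called higher (Tet3, Kdm6b, Gadd45b, Jmjd1c and Gadd45g) and 0 lower, with a median log2 ratio of 1.40. Gadd45b, linked to active DNA demethylation in neurons, had 0, 463 and 1228 CPM in FOS+ and 0, 0 and 2.45 CPM in FOS−, a log2 ratio of 10.09 (counting interval 9.44 to 10.82). Jmjd1c, a member of the JmjC demethylase family, was higher in 96.2% of pairs with a log2 ratio of 2.58. Close relatives were not called: Tet2 stood at 1.57, Kdm6a at −2.03 and Dnmt3a, a DNA methyltransferase gene, at 0.41.

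Genes of the activin pathway were called in both directions. Of 18 listed genes 9 were measured, with Inhba and the inhibitory SMAD gene Smad7 called higher and the type I receptor gene Acvr1b called lower, and a median log2 ratio of −0.99. Smad7 had 0, 9.06 and 315 CPM in FOS+ and 0, 0 and 3.25 CPM in FOS−, a log2 ratio of 7.62, or 8.40 without the highest nuclei. Acvr1b had 0, 0 and 10.8 CPM in FOS+ and 0, 1.08 and 572 CPM in FOS−, a log2 ratio of −7.73 carried by 11 FOS− nuclei above every FOS+ nucleus. It stood at −8.95 without the highest nuclei, and it was not called when 1 FOS+ and 1 FOS− nucleus under 4000 genes were added back. Acvr1c, another type I receptor gene, had 4 counts in all FOS+ nuclei and 6217 in the FOS− nuclei, but 8 FOS− nuclei held the excess and it was not called, with 65.0% of pairs. The type II receptor gene Acvr2a stood at −2.30 and the type I receptor gene Acvr1 at 3.08, and neither was called.

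Of 12 neurotrophin and receptor genes 7 were measured, and both Bdnf and the gene of its receptor TrkB, Ntrk2, were called higher. Bdnf had 70.2, 2342 and 6142 CPM in FOS+ and 0, 2.82 and 1777 CPM in FOS−, a log2 ratio of 3.26. HC mouse 6 had 1.29, 535 and 1400 CPM of Bdnf, a median between those of the FOS− and FOS+ nuclei, with ranges that overlapped. Ntrk2 had 22.3, 1287 and 2567 CPM in FOS+ and 1.77, 60.1 and 1215 CPM in FOS−, a log2 ratio of 2.91. Sort1, which encodes the sorting receptor sortilin, was called lower at −2.18 with 75.1% of pairs, but not under TMM or DESeq2 scaling, after thinning or with mean TPM. In the CREB pathway 17 genes were measured, 0 were called higher and Prkacb, a catalytic subunit of protein kinase A, was called lower at −2.20, or −3.02 without the highest nuclei. Prkacb lost its call in 6 of 7 other settings, and the median of the list was 0.13.

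Among the genes called lower, Per3 encodes a period protein of the circadian clock. It had 0, 1.09 and 297 CPM in FOS+ and 1.15, 333 and 1032 CPM in FOS−, a log2 ratio of −3.45, and HC mouse 6 had a median of 209 CPM. The other period genes were called the opposite way, Per1 at 2.69 and Per2, named after its values were seen, at 2.70. Tef, a PAR-domain factor gene of the clock output also named after its values were seen, was called lower at −2.21, with medians of 0 CPM in FOS+ and 58.1 CPM in FOS−, but not under TMM or DESeq2 scaling or with at least 1000000 counts per nucleus.

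Of the 12 genes called lower with the greatest share of pairs, 11 are described here. In each of them the FOS+ median lay below the FOS− median. Clasp2, whose protein stabilises microtubule ends, had 0, 0.958 and 1277 CPM in FOS+ and 0, 225 and 1806 CPM in FOS−, a log2 ratio of −2.22. That ratio was −3.47 without the highest nucleus of each group, and Clasp2 was not called under TMM or DESeq2 scaling. Sybu, whose protein links vesicles to kinesin, had 0, 0 and 32.2 CPM in FOS+ and 0, 36.3 and 1100 CPM in FOS−, a log2 ratio of −6.43, or −7.61 without the highest nuclei. Vps41, a subunit of the HOPS tethering complex, had 0, 0 and 745 CPM in FOS+ and 0, 242 and 960 CPM in FOS−, a log2 ratio of −2.93, or −4.13 without the highest nuclei. Rabgap1l, a Rab GTPase-activating protein gene, was counted in every nucleus and had 12.1, 35.8 and 250 CPM in FOS+ and 10.9, 255 and 1052 CPM in FOS−, a log2 ratio of −2.91. Akap11, which anchors protein kinase A, had medians of 9.96 CPM in FOS+ and 447 CPM in FOS−, a log2 ratio of −2.57, or −3.55 without the highest nuclei. The other members were Myef2 (−3.77, or −5.29 without the highest nuclei), the long noncoding RNA gene Snhg20 (−4.01, or −5.65), the zinc-finger gene Zfp157 (−4.96, or −6.07), 9330159F19Rik and 9630010A21Rik. In each of these 11 genes at least 1 FOS+ nucleus reached into the range of the FOS− nuclei.

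Genes called lower were less abundant than those called higher. Of the higher genes 25 exceeded 1000 CPM in the FOS+ sum, and of the lower genes 1, the noncoding RNA gene Snhg11, named after its values were seen, exceeded 1000 CPM in the FOS− sum. The genes called lower were also longer. Their median span in GENCODE was 41.7 kb, against 25.1 kb for the higher genes and 21.2 kb for all measured genes with a span. Of those matched, 95.8% of the lower genes, 86.1% of the higher genes and 77.3% of all measured genes were protein coding.

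In each list of synaptic transmission and housekeeping genes 0 or 1 member was called, beside 1.43% of all measured genes called higher and 1.44% called lower. None of 17 measured glutamate receptor genes, 12 GABA receptor genes or 77 respiratory chain genes was called in either direction, with median log2 ratios of 0.09, 0.09 and −0.48. In these lists 9, 7 and 11 genes had a ratio above 0, so most respiratory chain genes lay below 0 without being called. The median of all measured genes was −0.25. Of 24 potassium channel genes Kcna4 was called higher (2.09, but not after thinning or with at least 1000000 counts per nucleus), of 20 synaptic vesicle genes Sv2a was called lower (−2.25, or −2.84 without the highest nuclei, and not called under TMM or DESeq2 scaling), of 16 chaperone and stress genes Dnajb5 was called higher (2.51) and of 27 splicing genes Prpf38b was called higher (3.15). The medians of these lists were 0.15, −0.06, 1.13 and −0.23. Among 76 ribosomal protein genes Rps4x (−2.96, or −4.97 without the highest nuclei) and among 35 proteasome genes Psmd9 (−3.13) were called lower, with medians of −0.45 and −0.11, and Psmd9 was not called under TMM scaling, after thinning or with the limit on aligned reads alone.

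Of the 12 DG marker genes all were measured and 1 was called, Bcl11b, which encodes the sorted antigen CTIP2. It had 0, 0 and 116 CPM in FOS+ nuclei and 0, 4.09 and 1348 CPM in FOS− nuclei, a log2 ratio of −4.15 (counting interval −4.35 to −3.95), although every nucleus was sorted for the protein. The median of the DG markers was −0.90, and Prox1, the other sorted antigen, stood at 1.37. Of 4 measured markers of immature granule cells Draxin was called higher (2.36), at no more than 22.9 CPM in any FOS+ nucleus. Sox11 (1.46), Neurod1 (0.14) and Dcx (−3.72) were not called.

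**Figure D4:**
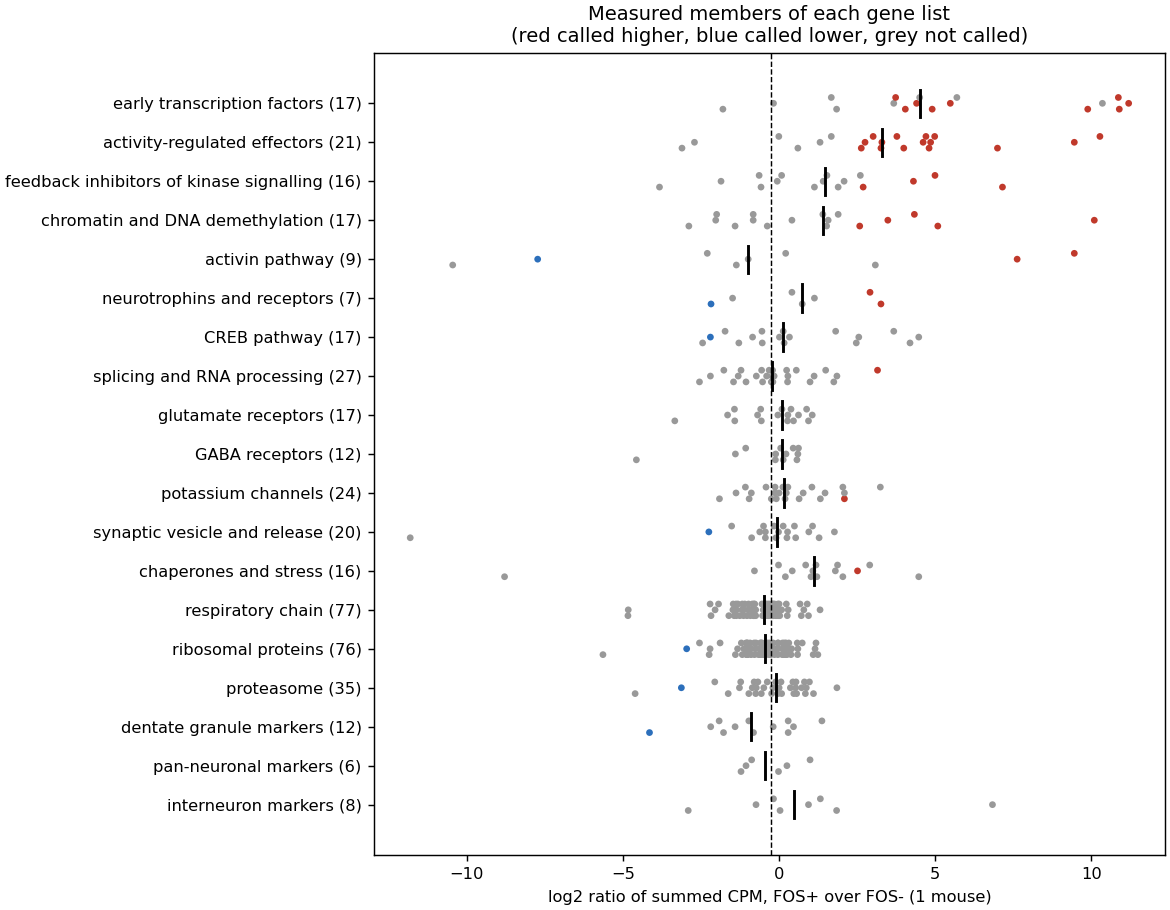
Log2 ratio of summed CPM (FOS+ over FOS−, 1 mouse) of the measured members of each gene list, with the number measured in parentheses. Points are genes (red called higher, blue called lower, grey not called), black bars are list medians and the dashed line is the median of all measured genes, −0.25. Early transcription factors and activity-regulated effectors stand to the right, with medians of 4.50 and 3.29.

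The genes called in the single DG mouse were then followed in other animals, where FOS+ and FOS− nuclei of the same mouse could be set side by side. CA1 nuclei came from 3 wild-type C57BL6 females 1 h after the same NE. They were mouse 2 (8.7 weeks, 24 FOS+ and 13 FOS− nuclei), mouse 4 (9 weeks, 4 and 5) and mouse 10 (8.85 weeks, 5 and 3). All were CA1 by predicted cell type, but the sort differed. By the labels the nuclei of mouse 2 were PROX1−CTIP2+ and those of mouse 4 PROX1−CTIP2−. PROX1+CTIP2+ nuclei came from 4 wild-type C57BL6 females of 8.85 weeks (mice 24, 25, 26 and 27, with 19 to 23 FOS+ and 21 to 24 FOS− nuclei each) that visited environment A on 2 occasions (A>A), were killed 1 h after the second visit and had all nuclei sorted as ARC+. The A>A background is thus ARC+FOS− nuclei, and a predicted cell type is not given for them. The genes called higher had median log2 ratios of 0.97, 1.20 and 0.92 in the CA1 mice and of 1.14, 1.11, 0.79 and 1.22 in the A>A mice, while the medians of all genes measured in each mouse lay between −0.33 and 0.04. Of the higher genes measured in a mouse, 67.1% to 80.5% had a ratio above 0 in CA1 and 82.4% to 88.8% in A>A, where 41.4% to 50.7% of all genes did.

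The genes called lower had medians below that of all genes in each mouse. Their medians were −0.32, −0.47 and −0.24 in the CA1 mice, beside −0.02, −0.33 and 0.04 for all genes, and −0.75, −0.73, −0.77 and −0.71 in the A>A mice, beside −0.07, −0.14, −0.12 and 0.00. The share of lower genes with a ratio below 0 was 61.3%, 61.8% and 56.8% in CA1 mice 2, 4 and 10, beside 50.8%, 58.6% and 49.3% of all genes, so mouse 4 was near its background. With all FOS− CA1 nuclei it was 54.9% in mouse 2, beside 52.3%. In the A>A mice the share was 70.6%, 72.0%, 70.0% and 67.2%, beside 52.4%, 54.7%, 54.7% and 50.1%. Whether the A>A and CA1 values differ was not tested. These medians were nearer to 0 than the 3.04 and −3.65 of the DG mouse, whose values chose the genes.

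Single genes varied between the mice. Arc had log2 ratios of 4.49 to 10.08 in the CA1 mice and, where both groups had been sorted for ARC protein, 0.24 to 1.39 in the A>A mice. FOS− CA1 nuclei with Arc above 2.5 in log2(TPM+1) had been left out. This limit removed nuclei of mice 2 and 10, so their Arc ratios follow in part from it. In mouse 4 all 5 FOS− nuclei were kept, and Arc stood at 9.14. Kdm6b was above 0 in all 7 mice, with 1.56 to 2.49 in CA1 and 3.12 to 3.68 in A>A. Inhba was above 0 in all 7 as well, with 1.35 to 7.53 in CA1 and 1.05 to 2.77 in A>A. Baiap2, high in every FOS+ DG nucleus, ran from −0.04 to 1.38 in CA1 and from 1.20 to 2.5 in A>A. Among the genes called lower, Clasp2 was below 0 in all 4 A>A mice (−1.71 to −0.10) and ran from −1.56 to 0.56 in CA1. Sybu went the other way in CA1, at 1.57 to 4.32 in all 3 mice, and ran from −0.30 to 1.31 in A>A.

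**Figure D5:**
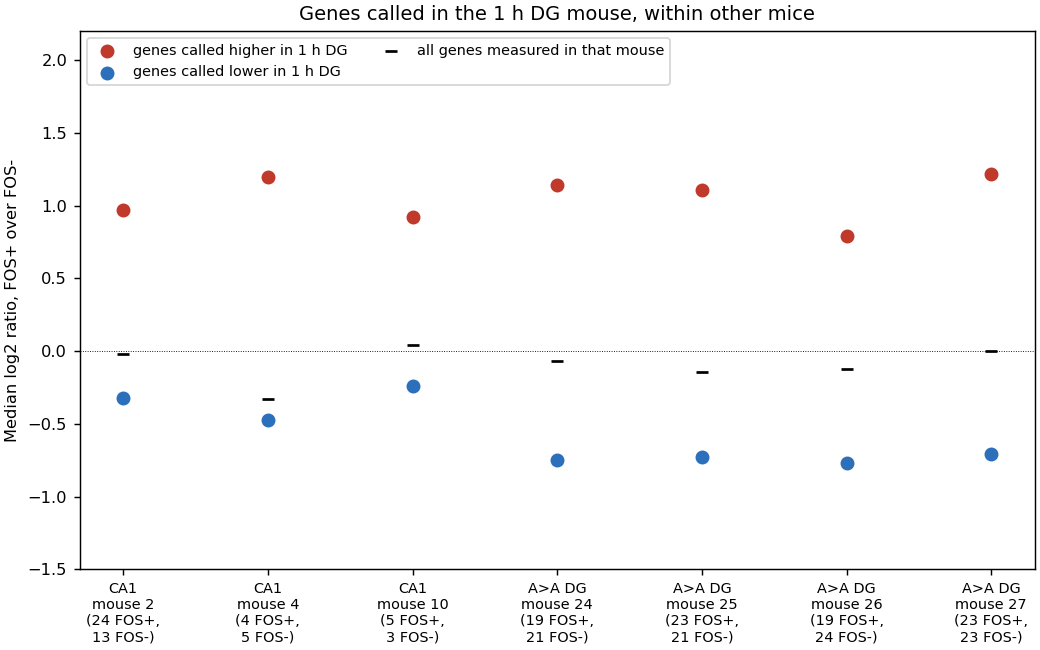
Median log2 ratio (FOS+ over FOS−, within each mouse) of the genes called higher (red) and called lower (blue) in the 1 h DG mouse, with the median of all genes measured in that mouse as a dash, for 3 CA1 and 4 A>A mice. Red points lie between 0.79 and 1.22 in every mouse, and blue points lie below the dash in every mouse, at −0.47 to −0.24 in CA1 and −0.77 to −0.71 in A>A.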

How the data were processed

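Single nuclei were sorted and made into SmartSeq2 libraries, and per the study's methods the authors ran Solexa-QA++ for trimming and RSEM with Bowtie for alignment and quantification against mm10 (GRCm38) with an Ensembl annotation, whose release is not given in the sources used here. RSEM, Bowtie and mm10 are also named in the submitters' processing notes. The deposited expected counts, estimated per gene by the authors with RSEM, are whole numbers and were used unchanged. The deposited log2 values are log2(TPM+1) made by the authors, used for detection and for the alternative of mean TPM. Genes with blank values, 30 in the count table and 23 in the log2 table, were left out, and 573 count columns of other nuclei were not used. The tables used here hold no mitochondrial or spike-in rows, so a share of mitochondrial counts was not computed.

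Counts were divided by each nucleus's total (CPM), or summed over the nuclei of a group for ratios, and a group at 0 was set at a floor of 3 counts. A gene was called at 4-fold in summed CPM and 75% of nucleus pairs, with ties shared equally between the groups. Values were computed with pandas 2.3.3, numpy 2.4.6 and scipy 1.17.1 under Python 3.11.15, and scaling factors came from edgeR 4.0.16 and DESeq2 1.42.0 in R 4.3.3, as alternatives only. The calling rule was run on simulated counts, which checked only that no gene was called against its simulated direction. Gene spans are those of GENCODE vM21, joined by symbol (97.1% of measured genes), and promoters those of RefSeq on GRCm38.p6. FOS− CA1 nuclei with Arc above 2.5 in log2(TPM+1) were left out, as in the study.

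The genes named are the 12 called in each direction with the largest share of pairs, less 1 gene called lower whose result is not reported here, members of written lists, Fos, and a few said in the text to be named after their values were seen. The comparison, the members and the lists were chosen with earlier results of these data known. Counts per nucleus of 506492 or more make counting error small beside the spread over nuclei, but reads are not molecules and copies from amplification are included.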

Additional observations from a re-analysis of the deposited data

Results flagged for a closer look

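Among the genes named in the DG comparison, Zfp157 had 1 mouse apart from the rest. Its log2 ratio of FOS+ over FOS− was −4.58 in A>A mouse 25, against −1.53 to −2.0 in mice 24, 26 and 27, a gap beyond Dixon's 95% limit for 4 values. All 4 lay below 0. It was 1 of 25 groups of A>A values screened, and chance alone passes that limit in about 1 of 20 groups.

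9330159F19Rik, called lower in the DG mouse, went opposite ways in the other animals. It was above 0 in all 3 CA1 mice, the lowest at 0.26, and below 0 in all 4 A>A mice, the lowest at −3.39. The difference was not tested.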

How the results depend on the processing

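No paired test was made. The DG comparison has 1 mouse, and in the CA1 and A>A mice FOS+ and FOS− nuclei were set side by side within each mouse as ratios only. The counts of calls moved with the limits. At 2-fold the lower calls were 258, at 8-fold the higher calls were 86, at 90% of pairs the calls were 42 higher and 4 lower, without a condition on pairs 832 and 1923, and with a count required in 50% of nuclei the lower calls were 105. Other settings kept both counts within 1.5 times of 170 and 171. No gene was free of overlap after thinning, a count of 0.

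The number of early genes per nucleus had a median of 33 in FOS+ and 23 in FOS− when any count was enough, and of 25.5 and 10 above a log2(TPM+1) of 3. In HC nuclei the median was 9 in mouse 6 above 3, and in mouse 7 it was 16 with any count, 16 after thinning and 8 above 3. With all FOS− CA1 nuclei the lower genes had a median of −0.20 in mouse 2 and the higher genes 0.66 in mouse 10. With no filter the lower genes had −0.88 in A>A mouse 26 and −0.74 in mouse 27. Of 62 named genes that were called, 24 moved by over 1.5 times without the highest nucleus of each group, all 24 away from 0. With mean TPM 12 of 60 did, and no named called gene changed sign under these settings. TMM scaling ended the call of 6 of them and DESeq2 size factors of 5, each a gene called lower. Thinning to 500000 counts ended 4 of the 62 calls and moved 7 by over 1.5 times.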
